A study of Tupaia belangeri with 2 samples.

Results

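Red blood cells in the dissociated brains of 2 tree shrew embryos were described here by 7 erythroid genes that are not globins: ALAS2, AHSP, HEMGN, SLC25A39, PCTP, RHCE and ICAM4. The members were chosen by name in the deposited annotation, where each name marks 1 of the 23975 gene models, and their raw UMI counts (unique molecular identifiers, which mark single captured transcripts) were taken over all barcodes of both libraries. The models are evm.model.chr3.263 (ALAS2), evm.model.chr2.538 (AHSP), evm.model.chr2.1428 (HEMGN), evm.model.chr16.913 (SLC25A39), evm.model.chr16.26 (PCTP), evm.model.chr13.785 (RHCE) and evm.model.chr28.237 (ICAM4). Positions and sequences of the models were not used here. Each animal was an untreated embryo at 4 to 5 postconceptional weeks with no genotype named, blood vessels and dura mater had been stripped from the brain, and the tissue was dissociated with papain and loaded as 1 library of the 10x 3′ v3 kit per embryo. Where in or on the tissue the erythroid cells lay was not tested, and the design holds no other condition.

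Erythroid cells make haemoglobin by joining globin chains with haem, whose synthesis begins and ends in the mitochondrion. Blood formation in mammals proceeds in waves, in which primitive red cells from the yolk sac carry embryonic globins and later, definitive red cells carry adult globins. As red cells mature they remodel their membrane, lose their nucleus and most of their RNA, and keep globin transcripts longest. Of the members, ALAS2 is the erythroid enzyme of the first step of haem synthesis, SLC25A39 is a carrier of the inner mitochondrial membrane that brings in glutathione, and AHSP is a chaperone that holds free alpha-globin. HEMGN is a nuclear protein of blood-forming cells, PCTP moves phosphatidylcholine between membranes, RHCE carries Rh blood group antigens, and ICAM4 is an adhesion protein that carries the Landsteiner-Wiener blood group.

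Embryo 1 gave 9241 barcodes with 41868023 UMIs and embryo 2 gave 9685 barcodes with 38077767 UMIs. Barcodes with at least 50% globin UMIs were called erythroid, and they were split by whether HBE1, HBZ and HBG1, the genes annotated as embryonic globins, made up at least 10% of their globin UMIs. This split was clear: in the erythroid barcodes the embryonic share lay under 2% or at 75% or more, with 2 exceptions in embryo 1 and 0 in embryo 2. Barcodes below the limit are called adult-type here, since HBB made up 98.8 to 99.2% of their globin UMIs. They numbered 787 and 236 with at least 200 genes detected and 833 and 353 with fewer (embryos 1 and 2), at median depths of 12512 and 14269 UMIs and of 2980 and 6872 UMIs. Embryonic-globin barcodes numbered 29 and 13, at median depths of 4274 and 3447 UMIs (embryos 1 and 2), and a further 192 and 111 with an embryonic share of 75% or more had a globin share of 10 to 50%. Barcodes with under 10% globin numbered 7340 and 8954. Of all barcode sequences 18 occurred in both libraries, 4 of them erythroid in either one, and without them no level given for the kinds changed by more than 0.863%. With the limit of the embryonic share at 5%, embryonic-globin barcodes of embryo 1 numbered 31 instead of 29. There 4 of 28 member levels moved by more than 1 SD between embryos, and the largest change was 269%.

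Levels are given as counts per 1000000 non-globin UMIs (CPM), because globin transcripts took up 87.8% and 87.7% of the UMIs of the adult-type barcodes with at least 200 genes. In a comparison of kinds of barcode, a level therefore tells what part of the RNA other than globin a gene made up. The 7 members together held 8.40% and 9.20% of the non-globin UMIs of these barcodes, against 0.277% and 0.469% in the embryonic-globin barcodes. Since the members were chosen as erythroid genes, their levels in erythroid against other barcodes are a description and were not tested.

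ALAS2 and AHSP accounted for most of these UMIs. ALAS2 stood at 20327 and 20430 CPM in adult-type barcodes with at least 200 genes, at 19370 and 33422 in those with fewer genes, and at 1134 and 1666 in embryonic-globin barcodes. AHSP stood at 61159 and 69056, at 36351 and 67468, and at 324 and 781 CPM in the same kinds. Both genes were thus higher in both adult-type kinds than in the embryonic-globin kind, in both embryos. How many of all genes show this order was not counted. Within 1 kind the barcodes differed widely: among the 787 adult-type barcodes with at least 200 genes of embryo 1, AHSP ranged from 0 to 363 UMIs with a median of 77, and ALAS2 from 0 to 96 with a median of 29. In embryo 2 the medians were 112.5 and 35 UMIs. At least 1 UMI of ALAS2 was found in 96.4% and 97.5% of these barcodes, against 2.10% and 0.581% of the barcodes under 10% globin, whose median depths were 3376 and 3132 UMIs. When each barcode was thinned to 500 UMIs, the shares were 64.2% and 65.3% against 0.463% and 0.112%.

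The ratio of AHSP to ALAS2 UMIs differed by kind. Adult-type barcodes with at least 200 genes held 3.01 and 3.38 AHSP UMIs for each ALAS2 UMI, those with fewer genes held 1.88 and 2.02, and embryonic-globin barcodes held 0.286 and 0.469. The last value rests largely on 1 barcode of embryo 2, which held 11 of the 15 AHSP UMIs. Among embryonic-globin barcodes with 10 to 50% globin the ratio was 0.266 and 0.247, so ALAS2 UMIs outnumbered those of the chaperone in both ranges and both embryos. The alpha-globin partner of AHSP was sparse in the counts. HBA1 and HBA2 together made up 0.563% and 0.886% of the globin UMIs of adult-type barcodes with at least 200 genes, and HBB 99.2% and 98.9%. For each 100 UMIs of HBA1 and HBA2 there were 151 and 110 AHSP UMIs. Whether these 2 models capture the alpha-globin transcripts in full was not tested. The ratio therefore holds for the counted UMIs only, not for the transcripts in the cells.

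SLC25A39, PCTP and HEMGN were found at lower counts. SLC25A39 stood at 827 and 708 CPM in adult-type barcodes with at least 200 genes, at 1740 and 2006 in those with fewer genes, and at 121 and 260 (6 and 5 UMIs) in embryonic-globin barcodes. PCTP stood at 833 and 784, at 641 and 829, and was counted as 1 and 0 UMIs in embryonic-globin barcodes, where 0 UMIs allow up to 156 CPM in embryo 2. HEMGN stood at 667 and 516, at 311 and 387, and at 40.5 and 364 (2 and 7 UMIs). The embryos differed in HEMGN more within the embryonic-globin kind than within the adult-type kinds, at single-digit counts. In the larger set of embryonic-globin barcodes with 10 to 50% globin, HEMGN was at 62.7 and 77.9, SLC25A39 at 39.6 and 26.0 and PCTP at 9.90 and 6.49 CPM.

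The blood group genes RHCE and ICAM4 had another distribution. RHCE stood at 204 and 516 CPM in adult-type barcodes with at least 200 genes, at 45 and 126 in those with fewer genes, and at 364 and 885 in embryonic-globin barcodes. ICAM4 stood at 23.7 and 25.3, was counted as 1 and 0 UMIs in the kind with fewer genes, and stood at 769 and 729 CPM in embryonic-globin barcodes. Of the 3 kinds, the embryonic-globin barcodes thus held the highest level of ICAM4 and RHCE and the lowest of the other members, in both embryos. This order was not tested and was not counted over all genes. For HEMGN in embryo 2 it rests on 7 UMIs. Over all genes tested below, the median log2 fold change against adult-type barcodes with at least 200 genes was -1.46. RHCE was higher in embryo 2 than in embryo 1 in each of the 3 kinds, and with 1 library per embryo an animal and its library cannot be told apart. No model is named RHD, the close paralog of RHCE, so reads of such a copy cannot be told apart from those of RHCE.

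**Figure D1:**
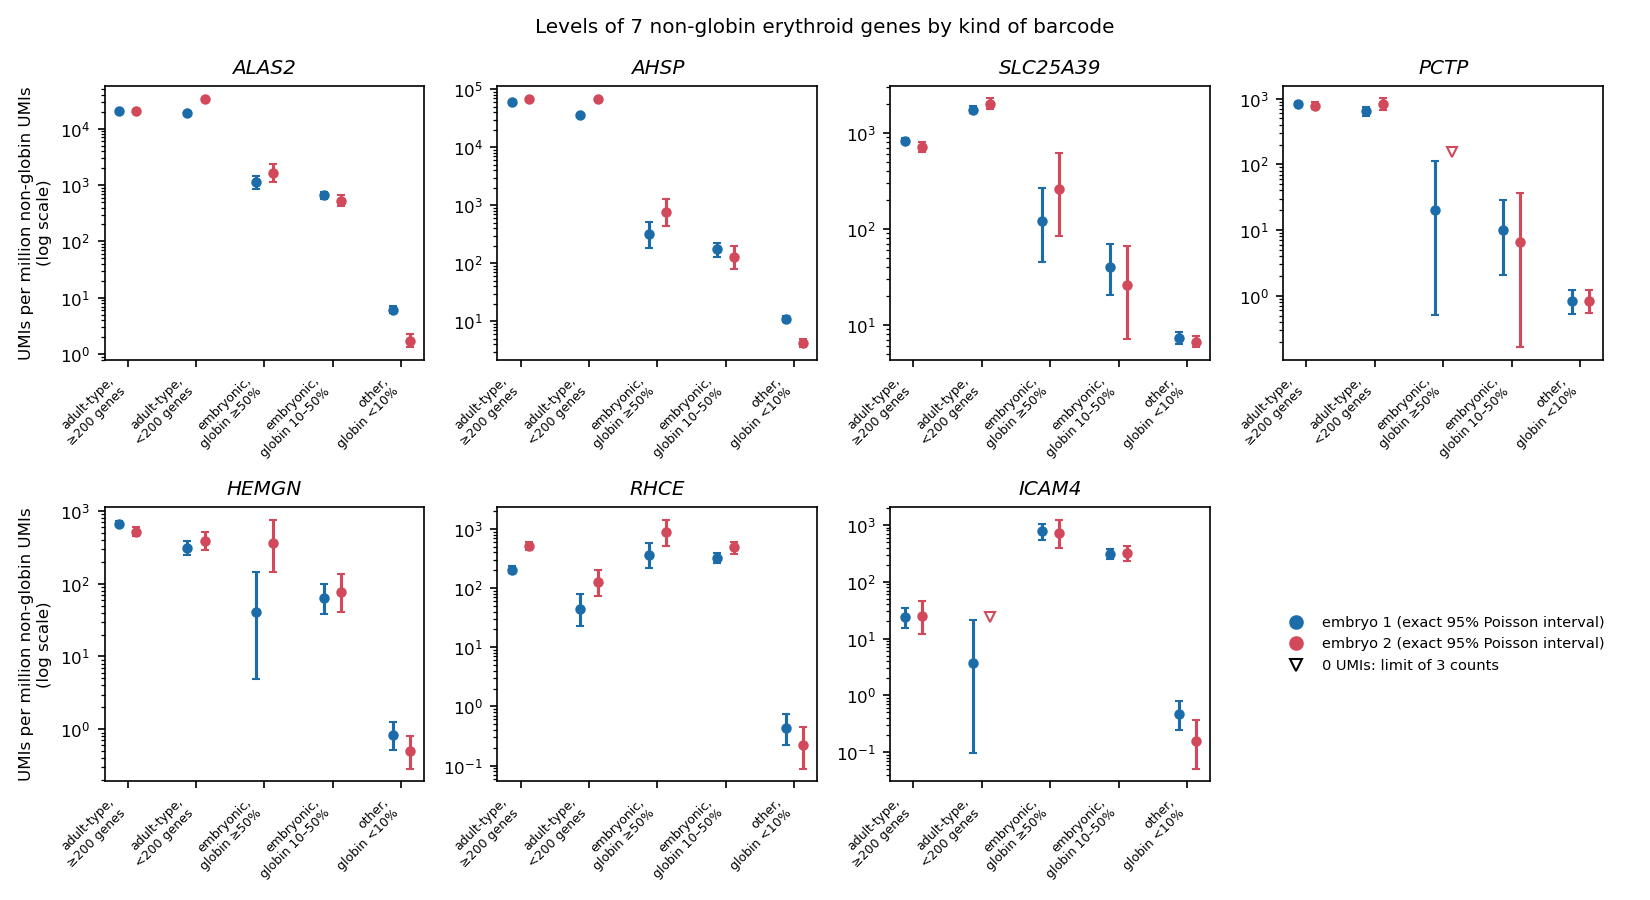
Level of each member in 5 kinds of barcode on a log axis, in CPM of non-globin UMIs, with 1 point per embryo and its exact 95% Poisson interval, which covers counting error only; open triangles mark 0 UMIs at the limit of 3 counts. ALAS2, AHSP, SLC25A39, PCTP and HEMGN lie highest in the adult-type kinds, whereas ICAM4 lies at 769 and 729 CPM in embryonic-globin barcodes against 23.7 and 25.3 in adult-type ones.

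To ask how the 2 globin classes differ, UMI sums per embryo of the embryonic-globin barcodes were compared with those of the adult-type barcodes with at least 200 genes, in edgeR's quasi-likelihood test with embryo as a block. Of the 6590 genes tested, 2.29% were called higher and 8.79% lower in embryonic-globin barcodes at an adjusted p under 0.05. Of the 7 members, 5 were lower, 1 was higher and 1 was not called. The members were chosen as erythroid genes with earlier results of these data known. Adult-type barcodes held 98.1% and 97.5% of all ALAS2 UMIs and 99.0% and 98.5% of all AHSP UMIs, but only 16.2% and 12.8% of those of ICAM4. How far that choice fixed the direction of the members' calls was not tested. Within an embryo both kinds come from 1 cell preparation and 1 library. The p-values rest on the residual spread of all 18 sums in the fit, with 8 residual degrees of freedom. Most of these sums are of other kinds and classes, so the p-values do not measure the spread of the 2 compared kinds alone.

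AHSP had the largest difference, with a log2 fold change of -7.91 (SE 0.46, edgeR adjusted p = 1.54e-40), from 16 and 15 UMIs in the embryonic-globin barcodes. By the levels alone AHSP was 189-fold (95% interval 116 to 330) lower in embryo 1 and 88.4-fold (53.6 to 158) lower in embryo 2. In embryo 2, however, 1 of the 13 embryonic-globin barcodes held 11 of the 15 AHSP UMIs, and 9 held none. The interval covers counting error only and not such a spread between barcodes. ALAS2 was lower by a log2 fold change of -4.75 (SE 0.34, edgeR adjusted p = 1.76e-29), or 17.9-fold and 12.3-fold by the levels. The first enzyme of haem synthesis and the globin chaperone were therefore both lower in the embryonic-globin barcodes, the chaperone by the larger factor in each embryo. The 2 kinds also differed in globin share, at 58.4% in embryonic-globin barcodes of both embryos against 87.8% and 87.7%. Adult-type barcodes of 50 to 70% globin held ALAS2 at 4291 and 3790 CPM and AHSP at 10576 and 8863. These levels were still above those of embryonic-globin barcodes but closer to them. Adult-type barcodes of that range also held neuron markers at higher levels than embryonic-globin barcodes, as given below. They are thus not matched in RNA of other cells. The part of globin share or of such RNA in the differences was not tested.

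PCTP (log2 fold change -6.54, SE 0.57), SLC25A39 (-3.02, SE 0.35) and HEMGN (-2.95, SE 0.38) were lower as well, each called by edgeR. In adult-type barcodes of 50 to 70% globin, however, SLC25A39 stood at 183 and 160 CPM and HEMGN at 85.7 and 49.4. For both genes the embryonic-globin level lay below these values in embryo 1 and above them in embryo 2. The PCTP value rests on 1 and 0 UMIs in embryonic-globin barcodes, and by the levels it was 41.1-fold (7.36 to 1626) lower in embryo 1. HEMGN rested on embryo 1, where it was 16.5-fold (4.54 to 136) lower, against 1.42-fold (0.674 to 3.56) in embryo 2. With only embryo 2 in the compared kinds its adjusted p by edgeR was 0.0528. ICAM4 was the member called higher, by a log2 fold change of 4.22 (SE 0.46, edgeR adjusted p = 7.31e-15), or 32.5-fold (19.3 to 55.4) and 28.8-fold (11.9 to 72.6) by the levels. In embryo 1, 1 adult-type barcode held 9 of the 27 ICAM4 UMIs of its kind. RHCE was not called, at -0.06 (SE 0.29, edgeR adjusted p = 0.913), and its sign turned with the scaling, to 0.31 with RLE size factors and 0.81 with library totals. By the levels RHCE was 1.78-fold (1.04 to 2.88) and 1.72-fold (0.981 to 2.82) higher in embryonic-globin barcodes.

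At a globin share of 10% rather than 50% for the embryonic-globin barcodes, an alternative added after the data were seen, there were 221 and 124 of them. All 6 called members kept their direction and call in edgeR: AHSP at -8.53, PCTP at -6.60, ALAS2 at -5.06, SLC25A39 at -4.11, HEMGN at -3.18 and ICAM4 at 3.75. RHCE stood at 0.18 and was not called. In these sums HEMGN was lower in both embryos, by 10.6-fold (6.76 to 17.8) and 6.62-fold (3.71 to 13.0) for the barcodes of 10 to 50% globin alone. ICAM4 in those barcodes was 13.1-fold (8.47 to 20.9) and 12.6-fold (6.30 to 27.9) above the adult-type level.

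The share of barcodes with an ICAM4 UMI followed the same order. It was 62.1% and 46.2% in embryonic-globin barcodes with at least 50% globin and 30.2% and 30.6% in those with 10 to 50%, against 2.16% and 3.81% in adult-type barcodes with at least 200 genes. In excitatory neuron-like barcodes, which should lack the gene, it was 0% and 0% (exact binomial upper limits 0.306% and 0.219%), at median depths of 3821 and 3682 UMIs. Not every brain class was at 0: over both embryos ICAM4 had 1 UMI in inhibitory neuron-like, 1 in dividing cell-like and 2 in radial glia-like barcodes. Choroid plexus-like and microglia-like barcodes had 0. Thinned to 500 UMIs, the embryonic-globin shares were 13.8% and 7.69% of 29 and 13 barcodes, against 0% and 0.424% in the adult-type ones. The 500 UMIs include globin, at 58.4% in embryonic-globin barcodes of both embryos against 87.8% and 87.7% in adult-type ones. The thinned kinds were thus not matched in non-globin UMIs. Of all ICAM4 UMIs of the libraries, 22.0% and 17.9% lay in embryonic-globin barcodes with at least 50% globin and 54.3% and 62.8% in barcodes with 10 to 50% globin.

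Of the 8 other haem synthesis genes listed, 5 were named and tested; edgeR called 4 lower in embryonic-globin barcodes and 0 higher, and DESeq2 called 3 lower. Their median log2 fold change was -2.02 against -1.46 over all genes tested, and UROD lay near that background. ALAD, which joins the products of the ALAS2 step, stood at -1.87, UROD at -1.42, and FECH, which inserts iron, at -2.60. ALAS1, the enzyme of the first step outside erythroid cells, had 16 and 6 UMIs in adult-type and 0 and 0 in embryonic-globin barcodes and was not called there, but it was called lower with the limit of 10% globin. Of the 6590 genes tested, 2645 had no UMI in the embryonic-globin barcodes, and 140 of these were called lower. A gene with no UMI there could be called only lower. The sums of these barcodes held 49389 and 19206 non-globin UMIs, against 1140980 and 395551 in the adult-type ones. UMI counts of the 2 kinds given here and below are not scaled to these totals.

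In the list of iron handling and mitochondrial import, 8 of 14 were tested, with a median of -0.63 against -1.46 over all genes tested. Of these, 2 were called lower, ISCA1 at -2.64 and GLRX5 at -1.62, both of iron-sulphur cluster assembly. GLRX5 lay near the median of all genes. Called higher was 1 gene, FAM210B, a mitochondrial membrane protein, at 2.03 from 12 and 2 UMIs. In the list of carbonic anhydrases, glycolysis and redox, 8 of 11 were tested; 3 were lower and 1 was higher, which was SOD1, the cytosolic superoxide dismutase, at 1.22. BPGM, which makes the 2,3-bisphosphoglycerate that lowers the oxygen affinity of haemoglobin, stood at -3.70, and GPX1, a glutathione peroxidase, had 771 and 248 UMIs in adult-type and 0 and 0 in embryonic-globin barcodes. In the wider set GPX1 had 11 and 6 UMIs and a log2 fold change of -4.53. In each of these lists DESeq2 called 2 genes lower and 1 higher.

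In the late maturation list 4 of 8 tested genes were lower and 0 higher, among them UBE2O, the ubiquitin ligase of reticulocyte remodelling, at -6.04, and XPO7, with 111 and 42 UMIs in adult-type and 1 and 0 in embryonic-globin barcodes. ALOX15, a lipoxygenase of the same list, had 33 and 92 UMIs in adult-type and 0 and 0 in embryonic-globin barcodes. Of the 14 membrane and skeleton genes tested 0 were called by edgeR, with 2 at an unadjusted p under 0.05, and DESeq2 called 0 higher and 0 lower. With embryonic-globin barcodes from 10% globin, however, edgeR called 3 of 14 tested genes of this list higher and 2 lower. Of 3 tested transcription factors, SOX6 was lower, with 56 and 13 UMIs in adult-type and 0 and 0 in embryonic-globin barcodes. In the dividing cell list 6 of 14 were lower and 0 higher: RRM2 had 223 and 61 UMIs in adult-type and 0 and 0 in embryonic-globin barcodes, CCNB1 83 and 18 against 0 and 0, and AURKB 68 and 12 against 0 and 0. DESeq2 called fewer of these genes: 2 lower in the late maturation list, 4 lower in the dividing cell list and 0 transcription factors. The adult-type counts come from 1140980 and 395551 non-globin UMIs and the embryonic-globin ones from only 49389 and 19206. At that depth a count of 0 does not show that a transcript was absent, and a gene with 0 UMIs there could be called only lower. From 10% globin, 7 of 14 tested dividing cell genes were called lower by edgeR and 0 higher.

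Markers of other cells moved with this comparison. Of the 6 megakaryocyte markers 3 were named; their sum was 445 and 937 CPM in embryonic-globin barcodes against 54.3 and 48.0 in adult-type ones. All 22 and 18 of these UMIs in the embryonic-globin barcodes were of PF4, with TUBB1 and GP1BB at 0. Of the 9 neuron markers STMN2, DCX and INA were named, and their sum was 162 and 156 CPM in embryonic-globin against 881 and 1057 in adult-type barcodes. Other lists went the same way as the neuron list: the choroid plexus markers were at 60.7 and 104 CPM against 930 and 351, the 9 dividing cell markers at 364 and 312 against 1667 and 908, and the radial glia markers at 162 and 0 against 812 and 417. The part of any of these lists in the differences of the members was not tested.

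**Figure D2:**
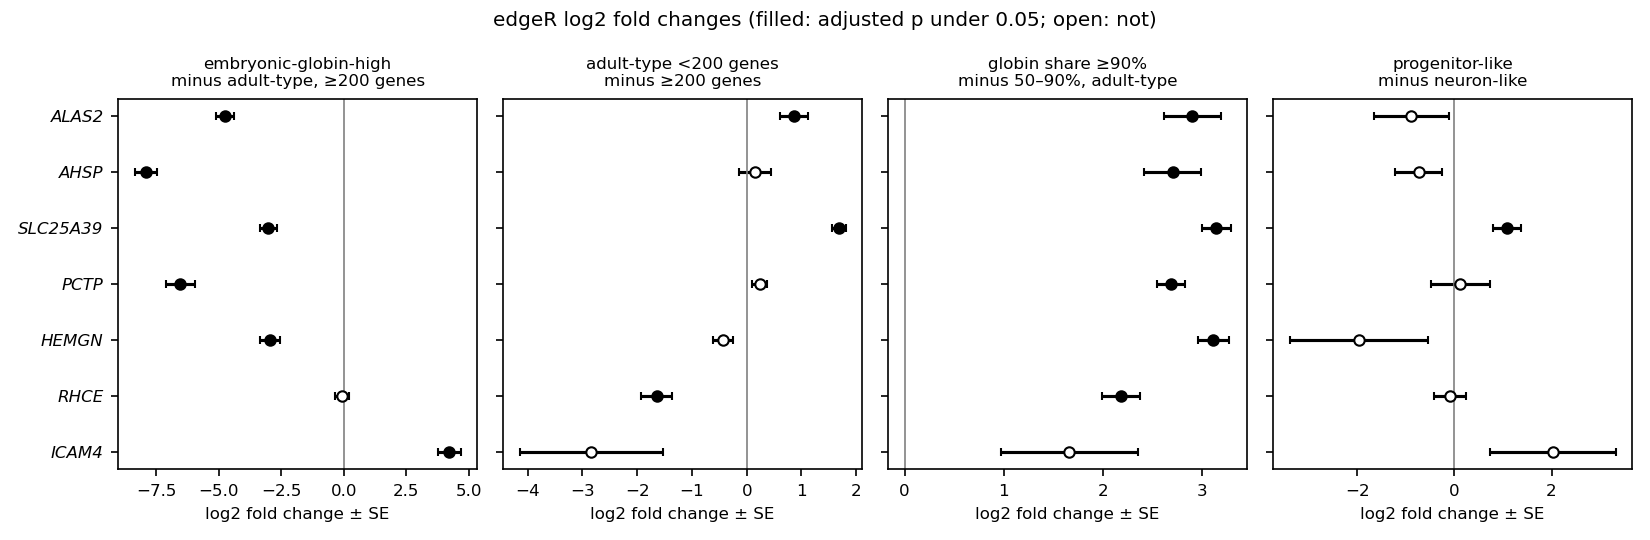
Log2 fold change of each member with its SE in the 4 edgeR comparisons, with filled points for an adjusted p under 0.05 and open points otherwise; positive values mean higher in the kind named first. In the first panel ICAM4 (4.22) lies right of 0 and AHSP (-7.91), PCTP (-6.54), ALAS2 (-4.75), SLC25A39 (-3.02) and HEMGN (-2.95) lie left of it.

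Adult-type barcodes with fewer than 200 genes were compared with those with at least 200 in the same fit. Of 6590 genes, 1.47% were called higher and 1.37% lower in the barcodes with fewer genes. Of the members 2 were called higher, ALAS2 and SLC25A39, and 1 lower, RHCE. SLC25A39 was higher by a log2 fold change of 1.68 (SE 0.13, edgeR adjusted p = 1.11e-26), or 2.10-fold (1.88 to 2.35) and 2.83-fold (2.38 to 3.37) by the levels. It stayed higher and called in each alternative fit, the lowest value being 0.48 at a globin share of at least 80% for erythroid barcodes. The 2 kinds differed in globin share, at 92.7% and 94.5% of UMIs in the barcodes with fewer genes against 87.8% and 87.7%. Within the range of 90 to 95% globin SLC25A39 stood at 1858 and 1631 CPM with fewer genes against 1519 and 1332, a smaller gap than over all barcodes. The split by genes also goes with the denominator: the median barcode held 285 and 311 non-globin UMIs with fewer genes against 959 and 1235. Counted per barcode (mean of both embryos), SLC25A39 had 0.638 UMIs against 1.19 and ALAS2 9.09 against 31.9. Per barcode both were thus lower with fewer genes, which was not tested.

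RHCE was lower by a log2 fold change of -1.65 (SE 0.29, edgeR adjusted p = 4.56e-06), or 4.54-fold (2.55 to 8.91) and 4.08-fold (2.45 to 7.27) by the levels, from 12 and 16 UMIs in the barcodes with fewer genes. DESeq2 gave -1.25 with an adjusted p of 0.863. ALAS2 was called at 0.86 (SE 0.25, edgeR adjusted p = 0.0331), but its level was 0.953-fold (0.924 to 0.982) in embryo 1 and 1.64-fold (1.58 to 1.70) in embryo 2. The embryos thus went opposite ways in level, and edgeR's call was lost with library totals (0.34, adjusted p = 0.109), without the block (0.85, adjusted p = 0.367) and with only embryo 1 in the compared kinds (0.14, adjusted p = 0.884), while at a globin share of at least 80% the value was -0.34 (adjusted p = 0.143). Within 90 to 95% globin ALAS2 stood at 24862 and 33971 CPM with fewer genes against 35869 and 36948, lower in both embryos.

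AHSP stood at 0.15 (SE 0.29), PCTP at 0.23 (SE 0.14), HEMGN at -0.43 (SE 0.18) and ICAM4 at -2.84 (SE 1.31), none of them called by edgeR. AHSP and PCTP took values below 0 with library totals, at -0.36 and -0.19. For erythroid barcodes from 80% globin both were called lower by edgeR, AHSP at -1.06 (adjusted p = 4.96e-11) and PCTP at -0.89 (adjusted p = 1.63e-08). The median of all genes moved by -0.41 between the 2 scalings, and the calls moved from 97 higher and 90 lower to 53 higher and 549 lower. In the list of haem synthesis 2 of 5 tested genes were lower, among them ALAD (-0.81), and 0 were higher. BPGM (1.28) and GPX1 (1.35) were higher, as SLC25A39 was, and SOD1 (-1.58) was lower.

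Within adult-type barcodes with at least 200 genes, the levels were set beside the share of globin. A range of globin share also sets how many non-globin UMIs a barcode holds, and these are the denominator of the CPM: they went from 3888 to 553 per barcode in embryo 1 and from 3682 to 624 in embryo 2 between the lowest and the highest range. From the range of 50 to 70% globin to that of 95 to 100%, ALAS2 went from 4291 to 41559 CPM in embryo 1 and from 3790 to 45345 in embryo 2. AHSP went from 10576 to 102967 and from 8863 to 125621, and already stood at 103202 and 120246 in the range of 90 to 95%. SLC25A39 went from 183 to 2184 and from 160 to 2323, and PCTP from 130 to 1591 and from 185 to 1602. On this scale each of these genes had its lowest level in the lowest range of both embryos.

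HEMGN went from 85.7 to 1726 and from 49.4 to 1282 CPM over the same ranges. RHCE went from 33.6 to 378 and from 74.1 to 1202, with embryo 2 above embryo 1 in each of the 6 ranges. ICAM4 showed no such course: it stood at 0 and 12.3 CPM in the lowest range and at 53.9 and 0 in the highest, within wide counting intervals. The neuron list went the other way, from 1379 to 512 CPM in embryo 1 and from 2457 to 160 in embryo 2.

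In UMIs per barcode the course was different. ALAS2 went from 16.7 in the lowest range to 36.6 at 85 to 90% globin and to 23.0 at 95 to 100% in embryo 1, and from 14 to 39.3 and 28.3 in embryo 2. AHSP went from 41.1 to 129 and 57.0 in embryo 1 and from 32.6 to 154 and 78.4 in embryo 2. Both genes thus had fewer UMIs per barcode in the highest range than at 85 to 90%, although their levels in CPM were higher there.

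**Figure D3:**
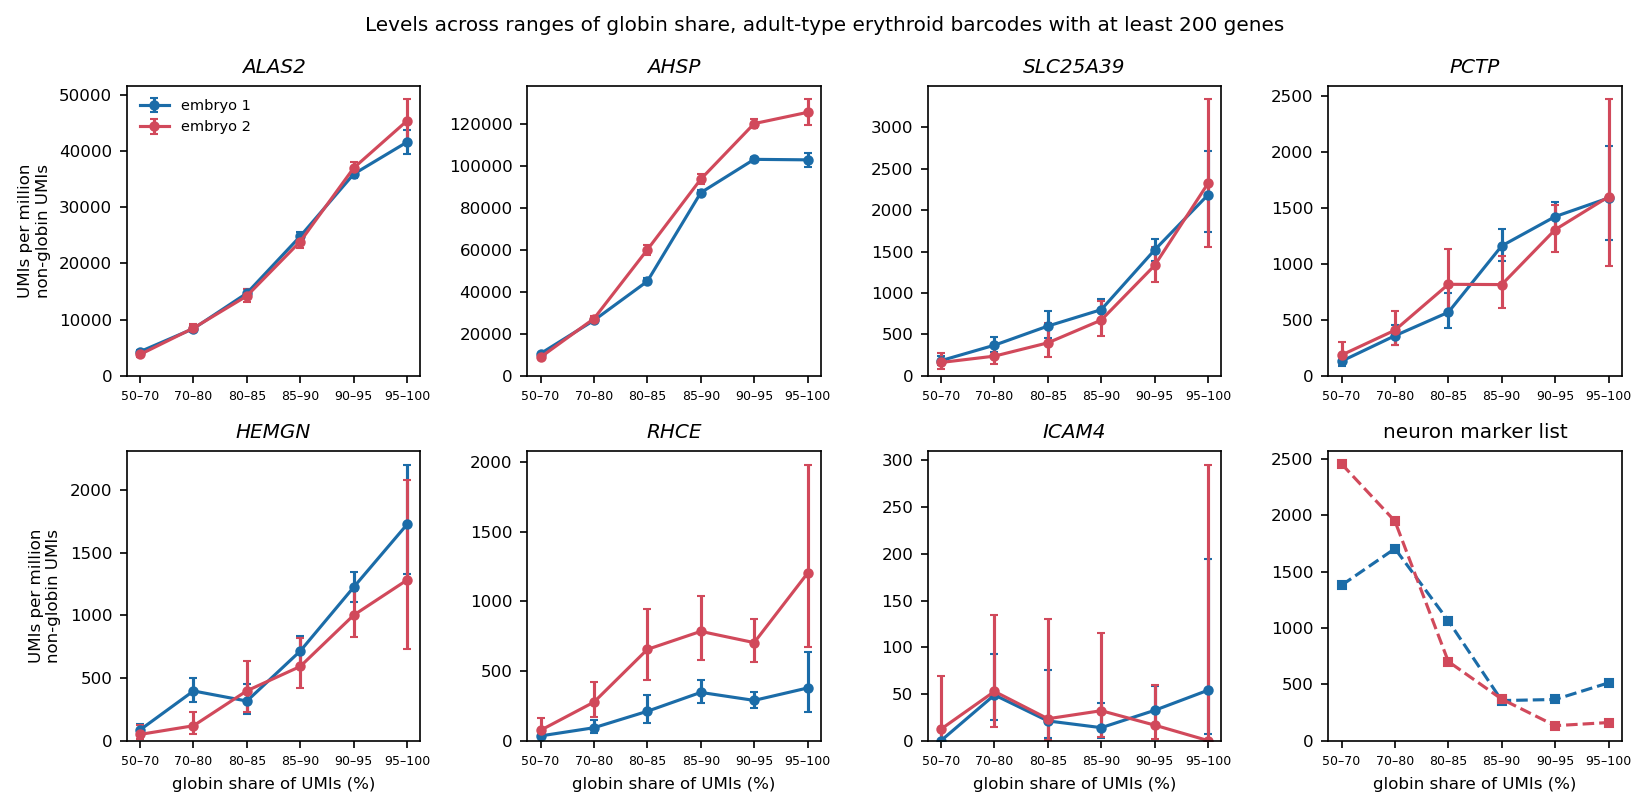
Level of each member, and of the neuron marker list, in CPM of non-globin UMIs, across 6 ranges of the globin share of a barcode's UMIs, for adult-type barcodes with at least 200 genes; lines join the ranges of 1 embryo and bars are exact 95% Poisson intervals. ALAS2 goes from 4291 and 3790 in the range of 50 to 70% to 41559 and 45345 in that of 95 to 100%, while the neuron list goes from 1379 and 2457 to 512 and 160; the non-globin UMIs that serve as denominator go from 3888 and 3682 to 553 and 624 per barcode.

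In edgeR, barcodes with at least 90% globin (456 and 138) were compared with those of 50 to 90% (331 and 98). Of 4927 genes, 12.6% were called higher and 3.65% lower at the high globin share. On the scale of non-globin sums with edgeR's TMM factors 6 members were called higher. ICAM4 was not called, at 1.66 (SE 0.69, edgeR adjusted p = 0.0944, DESeq2 adjusted p = 0.024). SLC25A39 (3.14, SE 0.15) and HEMGN (3.12, SE 0.16) had the largest values, followed by ALAS2 (2.90, SE 0.29), AHSP (2.70, SE 0.29), PCTP (2.69, SE 0.14) and RHCE (2.19, SE 0.19). By level ALAS2 was at 36429 and 37735 CPM in the barcodes with at least 90% globin and at 12389 and 11631 in the others. CPM levels are not scaled by TMM factors, so the log2 fold changes are not ratios of these levels.

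The same split sets the denominator of these values: the barcodes held 826 and 966 non-globin UMIs each at the high globin share against 2309 and 2676. Per barcode ALAS2 had 30.1 and 36.5 UMIs at the high share against 28.6 and 31.1, and AHSP had 85.2 and 117 against 93.4 and 114. SLC25A39 had 1.31 and 1.38 against 1.05 and 0.918, HEMGN 1.05 and 0.993 against 0.849 and 0.684, PCTP 1.19 and 1.29 against 1.23 and 1.35, and RHCE 0.246 and 0.725 against 0.366 and 1.06. ICAM4 had 0.0285 and 0.0145 against 0.0423 and 0.0816. Counted per barcode, RHCE, ICAM4 and, by little, PCTP were thus lower at the high share in both embryos. ALAS2, SLC25A39 and HEMGN were higher by smaller factors than in CPM, and AHSP went opposite ways in the embryos. These values were not tested, and the calls concern TMM-scaled non-globin sums alone.

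The scaling also sets much of the size of these values. With library totals, added after the data were seen, the median of all genes moved by -1.28, the calls went from 620 higher and 180 lower to 231 higher and 2469 lower, and the same 6 members stayed called as higher, between 0.89 (RHCE) and 1.86 (SLC25A39). With erythroid barcodes from 80% globin RHCE was no longer called (0.60, edgeR adjusted p = 0.0769), and the other 5 lay between 1.15 (AHSP) and 1.72 (SLC25A39). Of the haem synthesis genes 4 of 5 were higher and 0 lower, with a median of 1.98 against -0.21 over all genes. Of 12 membrane and skeleton genes tested 8 were higher, of 8 iron and import genes 6, of 6 carbonic anhydrase, glycolysis and redox genes 5, of 6 late maturation genes 4 and of 14 dividing cell genes 1 (median 0.16), with 0 lower in each of these lists. The 1 tested transcription factor, SOX6, was not called.

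Other cells' markers differed between these arms. The neuron list stood at 380 and 135 CPM at the high globin share against 1128 and 1525, and the 9 dividing cell markers, a shorter list than the one tested, at 841 and 353 against 2074 and 1190. STMN2 made up most of the neuron list, with 125 and 15 UMIs against 746 and 356. Not all lists went this way: the choroid plexus markers were at 348 CPM against 1217 in embryo 1 but at 893 against 76.3 in embryo 2, the megakaryocyte markers at 79.6 and 75 against 41.9 and 34.3, and the fibroblast markers at 42.5 and 15 against 14.4 and 7.63. Barcodes among the highest doublet scores numbered 119 of 787 and 42 of 236, and without them the 6 members stayed called in edgeR, between 1.16 (RHCE) and 2.44 (SLC25A39). The part of these lists in the differences was not tested.

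Outside the erythroid barcodes the members were rare. In the 7340 and 8954 barcodes under 10% globin, ALAS2 had 172 and 56 UMIs, AHSP 307 and 136, SLC25A39 204 and 214, PCTP 23 and 27, HEMGN 23 and 16, RHCE 12 and 7, and ICAM4 13 and 5. Over both embryos, 13 of the 18 ICAM4 UMIs and 10 of the 19 RHCE UMIs lay in an unnamed cluster led by embryonic globins, described further on. These barcodes are thus not all shown to be of other cells. Globin UMIs were found there as well, and so the counts were set beside what the globin UMIs of these barcodes would bring along at the ratios of the erythroid barcodes of the same embryo. HBB at the adult-type ratio and HBE1 with HBG1 at the embryonic ratio served as the 2 sources.

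For ALAS2 the HBB UMIs corresponded to 183 and 72.0 UMIs, and for AHSP to 512 and 210, at or above the numbers counted. Over these barcodes together the counts of both genes were thus no larger than the scaled numbers, and those of AHSP lay below them. Whether the erythroid ratios hold outside erythroid barcodes, and where these UMIs came from, was not tested. In 1 unnamed cluster of embryo 1, described further on, ALAS2 had 23 UMIs (14.6 to 34.5) where HBB corresponded to 7.36 and HBE1 with HBG1 to 3.41. SLC25A39 corresponded to 9.07 and 3.12 UMIs against the 204 and 214 counted, whose 95% Poisson intervals ran from 177 to 234 and from 186 to 245. PCTP (7.22 and 2.43 against 23 and 27) and HEMGN (5.44 and 1.48 against 23 and 16) lay above it too, at low counts. RHCE and ICAM4 lay above the sum of both sources in embryo 1 and within the counting interval of it in embryo 2.

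**Figure D4:**
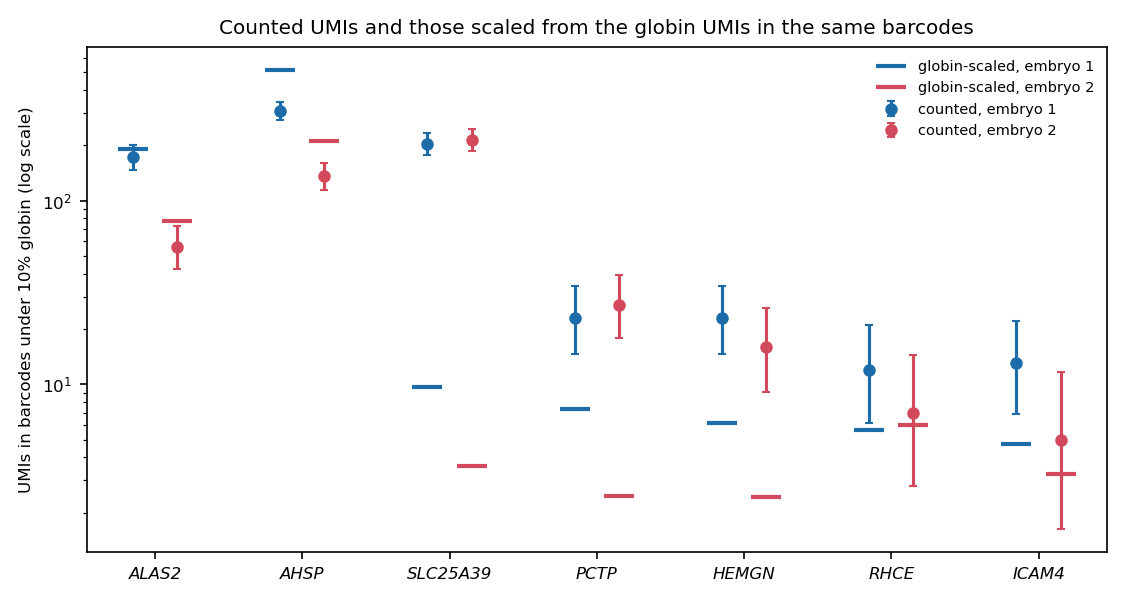
UMIs of each member counted in barcodes under 10% globin (points, with exact 95% Poisson intervals) beside the number scaled from the globin UMIs of the same barcodes (bars), on a log axis, for each embryo. SLC25A39 was counted at 204 and 214 UMIs, above its bars, whereas ALAS2 and AHSP lie at or under theirs.

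SLC25A39 also differed among brain cells. Its level was 8.69 and 7.88 CPM in dividing cell-like barcodes and 9.68 and 10.2 in radial glia-like ones, against 4.68 and 3.79 in inhibitory and 4.44 and 4.94 in excitatory neuron-like barcodes. The dividing cell-like and radial glia-like classes together are called progenitor-like here. The radial glia-like levels rest on 17 UMIs over both embryos. In microglia-like barcodes SLC25A39 stood at a mean of 10.1 CPM, from 5 UMIs over both embryos. The radial glia-like class is 1 cluster of 183 and 177 barcodes, named from VIM, NES, SLC1A3, FABP7 and PTPRZ1, while none of its 10 leading genes, such as BCAN, VCAM1 and SPON1, is among the markers. A larger cluster of 2002 barcodes with the radial glia markers PAX6, FABP7 and GLI3 stayed unnamed and out of the comparison. The naming rule left it out because FEZF2, of the excitatory neuron list, was among its leading genes. In edgeR, 30.3% of the 6590 genes were called higher and 34.4% lower in progenitor-like classes, and of the members SLC25A39 alone was called, higher by a log2 fold change of 1.08 (SE 0.28, edgeR adjusted p = 0.000374). It lay between 0.99 and 1.16 in the alternatives, and with only embryo 1 in the compared classes its adjusted p by edgeR was 0.0792.

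The other 6 members were not called by edgeR between progenitor-like and neuron-like classes. ALAS2 stood at -0.89 (SE 0.77), AHSP at -0.74 (SE 0.48), HEMGN at -1.98 (SE 1.42), PCTP at 0.12 (SE 0.60), RHCE at -0.10 (SE 0.33) and ICAM4 at 2.03 (SE 1.30). RHCE and ICAM4 had 3 UMIs or fewer in each of these classes of either embryo, too few to show a difference. Among the haem synthesis genes, ALAS1 was lower (-0.34) in progenitor-like classes, 1 was higher and 3 of 5 were not called.

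An unnamed cluster of 436 and 149 shallow barcodes under 10% globin, with HBG1 and HBE1 as its leading genes, held more of some members than other unnamed clusters. ICAM4 had 11 and 2 UMIs there against 1 and 0 in the other unnamed clusters, although these held 10647746 and 11145023 non-globin UMIs against 424721 and 137051. RHCE had 5 and 5 UMIs against 3 and 1, and ALAS2 23 and 6 against 52 and 22. Median depth in that cluster was 744.5 and 773 UMIs. Globin genes were not among the variable genes of the clustering. The cluster was picked afterwards for its leading embryonic globins, so these values are a description. It stayed unnamed because erythroid and dividing cell markers tied. A cluster led by HBG1 and HBE1 was named erythroid, from HBB, HBE1 and HBG1, at resolution 1.0 (441 and 155 barcodes) and without the highest doublet scores (297 and 199). With other barcodes limited to under 5% globin, the cluster led by HBE1 stayed unnamed.

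Over the 18 sums of 9 kinds and classes in 2 embryos, the members were set beside 9592 other genes by Pearson's r of log2 (CPM + 1), as a description. The sums share their libraries, so they are not independent. ALAS2 was most like GLRX5, LIPR1 and SLFN14 (r = 0.98 for each), and AHSP was most like BNIP3L, a mitophagy receptor of maturing red cells (0.981), DCAF6 (0.978) and BPGM (0.978). HEMGN was nearest to NTAN1 (0.974), TUBA4A (0.97) and ISG20 (0.967), and SLC25A39 to MAP2K3 (0.969), BPGM (0.968) and REXO2 (0.965). PCTP was nearest to TRIM10 (0.959), to the unnamed model evm.model.chr8.1066 (0.953) and to PLVAP (0.95). RHCE was nearest to EPB42, a protein of the red cell skeleton (0.995), and KPYR (0.989). ICAM4 had the lowest of these values, with FAHD2A (0.938), RECK (0.935) and REPS2 (0.911). Among the members, the pair of ALAS2 and AHSP had the highest r (0.97) and that of PCTP and ICAM4 the lowest (0.26).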

How the data were processed

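Whole-brain cells of 2 embryos were measured. The authors ran Cell Ranger 3.1.0 (cellranger count, default parameters) against the long-read assembly TS_2.0 and its annotation and deposited raw UMI counts per gene model and called barcode, without normalization; fastp and Seurat 3 are also named in the submitters' processing notes. The members and gene lists were chosen with earlier results of these data known. Python 3.11.15 with scipy 1.17.1 read the tables. Barcodes under 10% globin with at least 200 genes were clustered without the members and the globin genes among the variable genes (2000 variable genes, 20 components, 20 neighbours, leidenalg 0.10.2 at resolution 0.5, scikit-learn 1.9.0). A cluster was named from at least 3 markers detected in 10% of its barcodes and 2 times higher than elsewhere. It stayed unnamed where 2 lists tied or where another list had more markers among its 10 leading genes. A shallow cluster with no leading gene of its own list stayed unnamed too. The globin range of 10 to 50% stayed out of the fits. Doublets were kept: Scrublet (scanpy 1.11.5) called 1 barcode per embryo, so it did not work, and an alternative left out the 683 and 750 highest scores.

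UMI sums per embryo and kind, without the 8 globin genes, were fitted with edgeR 4.0.16 in R 4.3.3 (TMM, filterByExpr, embryo as a block, all kinds and named classes with at least 20 barcodes per embryo in one fit, a second fit for the globin share, Benjamini-Hochberg adjustment over all genes tested, threshold 0.05). The SE is the log2 fold change over the root of the F statistic. The pairing comes from the animal: both kinds of an embryo are from 1 library. Named were the members, the haem synthesis genes, per other list up to 3 called genes with the largest change in the first comparison, and per member the 3 genes most like it; 2 genes under this rule are not reported here. Intervals are exact 95% Poisson or binomial ones, and 0 UMIs are read as up to 3; both cover counting error only. Alternatives were RLE size factors, library totals, no filter, DESeq2 1.42.0, globin genes kept, no block, either embryo left out, highest doublet scores left out, and other limits of globin share, embryonic share and resolution. The procedure was tested on simulated data. Library totals, the 10% limit for embryonic-globin barcodes, the fits with 1 embryo and the removal of shared barcode sequences were added after the data were seen.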

Additional observations from a re-analysis of the deposited data

How the results depend on the processing

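Of 28 tests of a member (7 members in 4 comparisons), 16 were called. The share of all genes called differed between the comparisons. It was 2.29% higher and 8.79% lower for embryonic-globin barcodes and 1.47% and 1.37% for fewer than 200 genes. For the globin share it was 12.6% and 3.65%. In progenitor-like classes it was 30.3% and 34.4%, and 1 of the 7 members was called there. The total of 16 member calls became 15 to 17 under each alternative, where a comparison not fitted was counted at its main result. Such a total is therefore partly fixed beforehand, and it hides exchanges. With erythroid barcodes from 80% globin, ALAS2 (fewer than 200 genes) and RHCE (globin share) lost their calls. In the same setting AHSP and PCTP were newly called lower for fewer than 200 genes. The number of genes called moved by over 1.5 times as follows. In the embryonic-globin comparison it went from 730 to 1664 (776 higher, 888 lower) with embryonic-globin barcodes from 10% globin, and to 266 and 509 with 1 embryo in the compared kinds. The split of 151 higher and 579 lower became 213 and 357 with RLE size factors, 311 and 184 with library totals and 251 and 291 with DESeq2. For fewer than 200 genes it went from 187 to 602 with library totals, 105 without the replicate block and 356 for erythroid barcodes from 80% globin, and was 114 to 114 with either embryo left out; RLE gave 140 higher and 34 lower and DESeq2 162 and 30. For the globin share it went from 800 to 2700 with library totals, 388 without the highest doublet scores and 199 from 80% globin, and 423 to 612 with 1 embryo. For progenitor-like classes it went from 4264 to 1852 and 2036 with 1 embryo. In fits with 1 embryo in the compared kinds, the lone library is assumed to vary like the others. The block changed no member's call other than that of ALAS2 given above. No embryonic-globin barcode reached 80% globin, so that comparison could not be fitted there.

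Values with the opposite sign were as follows, and the cause was not tested. RHCE in the embryonic-globin comparison was 0.31 (RLE), 0.81 (library totals), 0.24 (DESeq2), 0.18 (from 10% globin) and -0.44 to 0.19 with 1 embryo. For fewer than 200 genes, from 80% globin, ALAS2 was -0.34, AHSP -1.06 and PCTP -0.89, with the last 2 called lower. There, AHSP was -0.36 (library totals), -0.043 (no filter), -0.55 (highest doublet scores left out) and -0.54 to 0.52 (1 embryo), PCTP was -0.19, -0.48 (library totals, doublet scores) and -0.17 to 0.63 (1 embryo), and HEMGN was -0.89 to 0.14 (1 embryo). In progenitor-like classes HEMGN was 0.98 and 0.53, PCTP -0.56 and -0.76, and RHCE 0.88 and 0.98, without the highest doublet scores and at resolution 1.0; RHCE was 1.25 with DESeq2 and -0.77 to 0.38 with 1 embryo, and PCTP -0.19 to 0.41. Other log2 fold changes of members kept direction and call in 260 cases, lost the call in 9 and gained it in 6. Levels of members stayed within 1 SD between embryos in 224 cases and moved further in 21. In the embryonic-globin barcodes few UMIs per member limit what can be seen.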
